A study of Mus musculus with 12 samples.

Results

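The protein-coding genes whose mouse symbol is Zfp followed by a number were taken from a table of 55487 genes. Of 398 such genes, 275 had a mean of at least 3 CPM (reads of a gene scaled to a library of 1000000 reads) over the 12 libraries, and these are described here. They were selected on their mean level over all libraries, and on no difference between groups. Just inside the minimum were Zfp72, Zfp229 and Zfp13 at a mean of 3.04, 3.07 and 3.16 CPM, and just outside were Zfp697, Zfp354a and Zfp607b at 2.99, 2.94 and 2.87 CPM. Of the other 123 genes, 12 were at 0 in all libraries and 111 were detected below the minimum. In 248 of the 275 genes all 4 group means reached 3 CPM, and in 27 at least 1 group mean was lower. Such genes can have passed the minimum only through the groups where they were high.

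The cells were primary mouse mammary fibroblasts (MMF), a line grown from the fat pad of 1 healthy B6 animal, so all groups are 1 line. The first group (n = 3) was given 100 nM doxorubicin, a DNA-damaging topoisomerase poison, for 24 h and collected on day 7, and its water vehicle (n = 3) was collected on the same day. The second group (n = 3) was given 750 uM hydrogen peroxide, an oxidant, for 2 h with 48 h of recovery, in 3 rounds, and was collected on day 6, as was its water vehicle (n = 3). The study describes the treatments as inducers of senescence by DNA damage and by oxidative stress. Vehicle cells were passaged to keep their density healthy, so treated and vehicle cells differed in passaging too. Whether replicates were separate cultures is not given in the labels, and the p-values then reflect library-to-library spread, which may be technical. Fewer cells of a kind and less RNA per cell cannot be told apart in such bulk libraries.

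Zinc fingers are short protein loops folded around a zinc ion. In the C2H2 type, pairs of cysteines and histidines hold the metal, and arrays of such fingers read DNA sequence. The largest group in mammals adds a KRAB box, which recruits Trim28 and with it Setdb1 and HP1 proteins to lay down repressive chromatin, mostly over retroelements. KRAB genes lie in tandem clusters that have grown by duplication. Other Zfp genes encode RNA-binding CCCH proteins, ribosome factors, ubiquitin ligases and transcription factors, so the shared symbol joins proteins of different function.

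Estimated depth was 21.5 to 37.6 M reads in doxorubicin libraries and 19.5 to 21.9 M in their vehicle, and 21.4 to 32.4 M in peroxide libraries and 17.3 to 20.99 M in their vehicle. At these depths 3 reads correspond to 0.0798 to 0.173 CPM, which covers counting error only, and the mean levels of the 275 genes lie above this floor. Within groups the libraries correlated across genes at 0.973 to 0.996. On the second principal component (23.7% of the variance), peroxide replicate 2, doxorubicin vehicle replicate 3 and doxorubicin replicate 1 stood apart from the rest of their groups. All 8 fibroblast markers were detected, at a summed 9753 to 14239 CPM in doxorubicin libraries and 7604 to 8472 CPM in their vehicle, and at 9703 to 11162 CPM in peroxide libraries and 7037 to 8587 CPM in their vehicle. After doxorubicin 6 of them rose and 1 fell, which was Pdgfrb at -0.26 log2 units (limma adjusted p = 0.0352). After peroxide 6 rose and 0 fell, with Vim at -0.76 log2 units (limma adjusted p = 0.0825). Of the markers of other cells, 6 of 7 epithelial, 3 of 4 endothelial, 4 of 6 leukocyte, 3 of 5 adipocyte and 3 of 4 Schwann cell genes averaged under 1 CPM, and none was at 0 in all libraries. Krt19 made up most of the epithelial sum, which was 68.7 to 80.6 CPM in doxorubicin libraries and 122 to 184 CPM in their vehicle, and 18.2 to 58.2 CPM in peroxide libraries and 168 to 181 CPM in their vehicle. The 3 pericyte genes summed to 11.4 to 13.5 CPM in doxorubicin libraries and 6.93 to 11.5 CPM in their vehicle, and to 9.58 to 12.4 CPM in peroxide libraries and 24.5 to 26.5 CPM in their vehicle. They moved apart, with Mcam at 2.15 log2 units after doxorubicin and 0.05 after peroxide. Cspg4 was at -0.33 and -1.90 log2 units, and Rgs5 at -0.13 and -0.03. The proliferation genes Mki67, Top2a and Ccnb1 summed to 166 to 195 CPM in doxorubicin libraries and 627 to 681 CPM in their vehicle, and to 351 to 374 CPM in peroxide libraries and 955 to 998 CPM in their vehicle. The endothelial sum was 34.01 to 44.4 CPM in doxorubicin libraries and 12.4 to 16.1 CPM in their vehicle, and 22.1 to 27.3 CPM in peroxide libraries and 5.57 to 9.19 CPM in their vehicle. Nearly all of it was Tek. The adipocyte sum was 21.96 to 29.3 CPM in doxorubicin libraries and 55.5 to 64.7 CPM in their vehicle, and 28.4 to 31.4 CPM in peroxide libraries and 50.1 to 51.7 CPM in their vehicle. Fabp4 made up most of the adipocyte sum. Adipoq, at a low level, went the other way, at 0.92 log2 units after doxorubicin and 1.06 after peroxide (limma adjusted p = 0.00354 and 0.00136). The Schwann cell sum was 28.4 to 35.8 CPM in doxorubicin libraries and 21.3 to 24.1 CPM in their vehicle, and 37.4 to 43.9 CPM in peroxide libraries and 10.7 to 12.5 CPM in their vehicle. Nearly all of it was S100b. The leukocyte sum was 16.2 to 20.03 CPM in doxorubicin libraries and 9.87 to 11.9 CPM in their vehicle, and 10.4 to 13.8 CPM in peroxide libraries and 14.6 to 15.6 CPM in their vehicle. Csf1r made up most of the leukocyte sum, at 0.58 log2 units after doxorubicin and -0.57 after peroxide, while Cd68 was at 0.77 and 0.68. All of these sums separated treated from vehicle libraries in both experiments, except the pericyte sum after doxorubicin, and the part of these sums in the Zfp results was not tested.

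The Zfp genes were expressed at modest levels. Their mean over the 12 libraries had a median of 9.01 CPM, against 16.3 CPM for all 13280 tested genes, and ranged from 3.04 to 255 CPM. Of the 275 genes, 148 averaged under 10 CPM, 113 lay between 10 and 50 CPM, and 14 were above 50 CPM. Per kilobase of the longest annotated transcript, the highest level was that of Zfp207 at 77.7 CPM per kb. Zfp207 encodes BuGZ, which binds microtubules and helps chromosomes align on the spindle. Next on that scale came Zfp414 at 30.8, Zfp637 at 28.9, Zfp260 at 24.2 and Zfp410 at 23.2 CPM per kb, and the lowest was Zfp618 at 0.461 CPM per kb. All 275 genes together summed to 4117 ± 125 CPM in doxorubicin libraries and 4561 ± 104 CPM in their vehicle, and to 4651 ± 284 CPM in peroxide libraries and 4313 ± 73.5 CPM in their vehicle (SD, n = 3 each). The libraries ranged from 4044 to 4262 CPM after doxorubicin and from 4460 to 4667 CPM in their vehicle, and from 4378 to 4945 CPM after peroxide and from 4233 to 4377 CPM in their vehicle. The sum thus lay below the vehicle after doxorubicin and above it after peroxide with no overlap, by a narrow gap for peroxide.

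All 275 genes passed the filter on low values and were tested, and changes are given on the log2(CPM + 1) scale, which understates the change of genes with low values. After doxorubicin, 22 genes rose and 66 fell at an adjusted p below 0.05, which is 32.0% of the 275 genes. Among all tested genes the share called in this comparison was 49.9%, with 22.1% rising and 27.8% falling. The libraries of both groups did not overlap for 20 of the 22 genes that rose and for all 66 that fell. Such overlap was not counted over all tested genes, and these genes were already called, so it adds no separate evidence. Changes were small: the median log2 change was -0.11, against -0.03 for all tested genes, 79.6% of the Zfp genes lay within 0.5 log2 units of their vehicle, and 5 changed by at least 1 log2 unit. Among all tested genes 61.3% lay within 0.5 units, and 12.9% were called with a change of at least 1 unit. Of the Zfp genes that were called, 25% rose, a share that became 44% (33 rising and 42 falling) when each library was corrected for the GC content of its transcripts. Among all tested genes 44.3% of those called rose, and with the same correction 2796 rose and 3689 fell. The number that rose was 14 without doxorubicin replicate 2, doxorubicin replicate 3 or doxorubicin vehicle replicate 2.

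Among genes whose libraries did not overlap, the largest increases after doxorubicin were in Zfp651 and Zfp618. Most vehicle libraries of both genes lay below 3 CPM, and Zfp618 averaged 1.35 CPM in day 7 and 2.08 CPM in day 6 vehicle. Both thus passed the minimum through treated libraries, a selection that favours genes that rise. Zfp651, a BTB and zinc finger gene since renamed Zbtb47 (chromosome 9, 121759330 to 121771742, plus strand, mm10), had 5.54, 8.06 and 9.13 CPM in doxorubicin libraries, against 2.42, 3.24 and 1.13 CPM in their vehicle. The lowest treated library was above the highest vehicle library, and the increase was 1.43 ± 0.24 log2 units (SE, limma adjusted p = 0.000491). Zfp618, whose human protein binds the UHRF2 reader of modified cytosine (chromosome 4, 62965573 to 63139708, plus strand), had 4.66, 5.42 and 5.303 CPM in doxorubicin libraries, against 1.28, 1.596 and 1.18 CPM in their vehicle, an increase of 1.38 ± 0.13 log2 units (SE, limma adjusted p = 5.6e-06). Treated libraries of Zfp618 lay close together and far above the vehicle. Zfp365, known in humans as a p53 target that protects genome stability (chromosome 10, 67886103 to 67912662, minus strand), had 34.1, 35.2 and 36.9 CPM in doxorubicin libraries, against 17.1, 19.01 and 16.98 CPM in their vehicle. It rose by 0.96 ± 0.09 log2 units (SE, limma adjusted p = 8.51e-06), with all treated libraries nearly equal.

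Zfp346, which encodes a protein that binds double-stranded RNA, had 11.4, 19.5 and 15.8 CPM in doxorubicin libraries, against 8.88, 6.84 and 6.36 CPM in their vehicle, an increase of 0.97 ± 0.18 log2 units (SE, limma adjusted p = 0.00107). Zfp874a, a KRAB gene on chromosome 13, had 29.6, 25.4 and 33.5 CPM in doxorubicin libraries, against 13.2, 15.4 and 18.1 CPM in their vehicle and rose by 0.88 ± 0.13 log2 units (SE, limma adjusted p = 0.00017). It shares 13.3% of its 31-base windows with transcripts of other genes, so its reads are less certain. Zfp688 averaged 6.34 ± 1.695 CPM in doxorubicin libraries and 2.46 ± 0.753 CPM in their vehicle (SD, n = 3 each) and rose by 1.08 ± 0.21 log2 units (SE, limma adjusted p = 0.00148). Zfp623 averaged 13.4 ± 4.48 CPM in doxorubicin libraries and 6.72 ± 1.08 CPM in their vehicle (SD, n = 3 each) and rose by 0.86 ± 0.19 log2 units (SE, limma adjusted p = 0.00335), with doxorubicin replicate 2 the highest library. Treated and vehicle libraries did not overlap in any of these genes, which was a condition of their selection. Zfp13, also called, had 1.91, 10.6 and 7.88 CPM in doxorubicin libraries, against 2.27, 2.01 and 0.41 CPM in their vehicle, so its groups overlapped, and its increase of 1.48 ± 0.52 log2 units (SE, limma adjusted p = 0.0353) was lost without doxorubicin replicate 2, without doxorubicin replicate 3 or without doxorubicin vehicle replicate 3 (limma adjusted p = 0.139, 0.112 and 0.134).

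The largest decrease was in Zfp101, a KRAB gene (chromosome 17, 33360507 to 33394641, minus strand). It had 5.31, 5.03 and 3.602 CPM in doxorubicin libraries, against 10.9, 12.2 and 11.4 CPM in their vehicle, and fell by 1.16 ± 0.14 log2 units (SE, limma adjusted p = 4.21e-05). The treated libraries lay well below the lowest vehicle library. Zfp599 had 2.79, 1.44 and 1.64 CPM in doxorubicin libraries, against 4.98, 4.56 and 4.26 CPM in their vehicle and fell by 0.95 ± 0.22 log2 units (SE, limma adjusted p = 0.00393). Zfp827, whose human protein recruits the NuRD complex to telomeres, had 2.61, 4.17 and 4.79 CPM in doxorubicin libraries, against 9.13, 8.52 and 6.57 CPM in their vehicle, a fall of 0.92 ± 0.19 log2 units (SE, limma adjusted p = 0.00242). Zfp41 averaged 16.3 ± 3.21 CPM in doxorubicin libraries and 31.4 ± 3.92 CPM in their vehicle (SD, n = 3 each) and fell by 0.92 ± 0.21 log2 units (SE, limma adjusted p = 0.00403). Zfp979, a KRAB gene that shares 32.4% of its windows with other transcripts, fell by 0.86 ± 0.14 log2 units (SE, limma adjusted p = 0.000399).

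Zfp367 (chromosome 13, 64133018 to 64153202, minus strand) had 9.69, 9.76 and 11.4 CPM in doxorubicin libraries, against 17.7, 20.97 and 19.4 CPM in their vehicle and fell by 0.85 ± 0.10 log2 units (SE, limma adjusted p = 4.87e-05). Zfp946, a KRAB gene on chromosome 17, had 10.2, 8.27 and 11.2 CPM in doxorubicin libraries, against 18.4, 19.1 and 17.03 CPM in their vehicle and fell by 0.82 ± 0.14 log2 units (SE, limma adjusted p = 0.000572). Zfp7 had 3.96, 5.48 and 4.51 CPM in doxorubicin libraries, against 7.85, 7.58 and 10.8 CPM in their vehicle and fell by 0.78 ± 0.15 log2 units (SE, limma adjusted p = 0.00135), with 20.5% of its windows shared. In each of these genes the groups stayed apart, which was a condition of their selection. None of these calls was lost when any single library was left out.

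**Figure D1:**
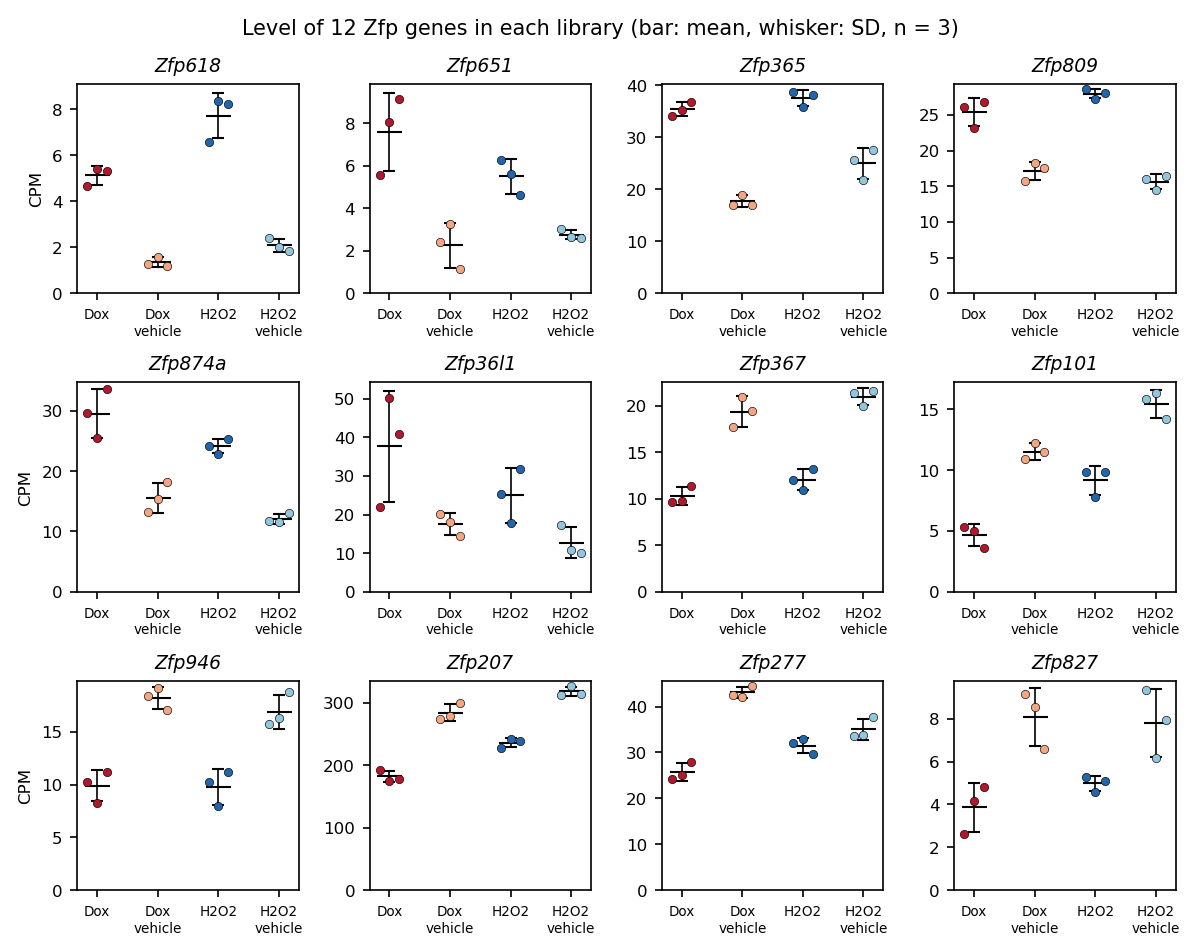
Level in CPM (vertical axis, from 0) of 12 Zfp genes in each library, with doxorubicin (Dox) left of its vehicle and peroxide (H2O2) left of its vehicle; points are libraries, bars the mean and whiskers the SD (n = 3). In Zfp618 and Zfp365 every treated library lies above its vehicle in both experiments, and in Zfp367 and Zfp101 every treated library lies below.

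After peroxide the split ran the other way, with 74 genes rising and 29 falling, 37.5% of the 275 genes. Among all tested genes the share called was 50.7%, with 27.3% rising and 23.4% falling. The groups did not overlap for any of the 74 genes that rose, and for 28 of the 29 that fell, again with no count over all tested genes. The median log2 change was 0.10, against -0.01 for all tested genes, and 75.6% of the Zfp genes lay within 0.5 units, against 59.5% of all tested genes. A change of at least 1 log2 unit was called in 6 of the 275 genes, against 13.9% of all tested genes. Without peroxide replicate 1 the number of genes that fell was 18.

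Zfp618 had the largest increase after peroxide, with 6.58, 8.37 and 8.23 CPM in peroxide libraries, against 2.39, 2.001 and 1.85 CPM in their vehicle, a change of 1.5 ± 0.13 log2 units (SE, limma adjusted p = 2.65e-06). Zfp354c, a KRAB gene on chromosome 11, had 16.3, 15.4 and 19.96 CPM in peroxide libraries, against 8.47, 6.67 and 8.44 CPM in their vehicle, and rose by 1.04 ± 0.13 log2 units (SE, limma adjusted p = 4.44e-05). All peroxide libraries of Zfp354c were above the vehicle. Zfp652, whose human protein represses transcription together with CBFA2T3, had 44.97, 60.3 and 50.3 CPM in peroxide libraries, against 26.1, 30.2 and 26.7 CPM in their vehicle and rose by 0.87 ± 0.11 log2 units (SE, limma adjusted p = 6.22e-05), with 19.8% of its windows shared. Zfp874a had 24.1, 22.9 and 25.3 CPM in peroxide libraries, against 11.7, 11.5 and 13.1 CPM in their vehicle, an increase of 0.94 ± 0.13 log2 units (SE, limma adjusted p = 9.89e-05). Zfp810 averaged 11.4 ± 1.2002 CPM in peroxide libraries and 5.65 ± 0.308 CPM in their vehicle (SD, n = 3 each) and rose by 0.89 ± 0.11 log2 units (SE, limma adjusted p = 3.71e-05). Zfp93, with 29.9% of its windows shared, averaged 8.395 ± 0.223 CPM in peroxide libraries and 4.08 ± 0.711 CPM in their vehicle (SD, n = 3 each) and rose by 0.9 ± 0.14 log2 units (SE, limma adjusted p = 0.0003). Zfp174, which encodes a SCAN domain protein, averaged 5.18 ± 0.26 CPM in peroxide libraries and 2.46 ± 0.537 CPM in their vehicle (SD, n = 3 each) and rose by 0.85 ± 0.16 log2 units (SE, limma adjusted p = 0.00116).

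Among called genes the largest decreases after peroxide were in Zfp689, Zfp446, Zfp324 and Zfp212. Zfp689 had 1.6002, 0.614 and 1.57 CPM in peroxide libraries, against 6.09, 5.43 and 2.94 CPM in their vehicle, a fall of 1.35 ± 0.34 log2 units (SE, limma adjusted p = 0.00612). The lowest vehicle library of Zfp689 was above the highest treated library, and 14.99% of its windows are shared. Zfp446 averaged 2.06 ± 0.77 CPM in peroxide libraries and 5.69 ± 0.555 CPM in their vehicle (SD, n = 3 each) and fell by 1.16 ± 0.29 log2 units (SE, limma adjusted p = 0.00697). Zfp324, its neighbour on chromosome 7, averaged 2.51 ± 0.817 CPM in peroxide libraries and 6.21 ± 1.62 CPM in their vehicle (SD, n = 3 each) and fell by 1.05 ± 0.24 log2 units (SE, limma adjusted p = 0.00368). Zfp212 had 6.95, 5.04 and 7.48 CPM in peroxide libraries, against 16.4, 15.01 and 11.6 CPM in their vehicle, and fell by 1.04 ± 0.26 log2 units (SE, limma adjusted p = 0.00648). In all 4 genes peroxide replicate 2, a library that stood apart, was the lowest. Without the 3 libraries that stood apart the falls were 1.13, 0.95, 0.85 and 0.89 log2 units, and all 4 calls remained.

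Zfp131, which encodes a BTB domain protein, was expressed at a higher level, with 39.1, 39.8 and 44.3 CPM in peroxide libraries, against 71.6, 78.6 and 61.4 CPM in their vehicle. It fell by 0.76 ± 0.11 log2 units (SE, limma adjusted p = 0.000126), and its groups lay far apart. Zfp367 had 11.997, 10.97 and 13.2 CPM in peroxide libraries, against 21.3, 19.9 and 21.6 CPM in their vehicle, a fall of 0.75 ± 0.10 log2 units (SE, limma adjusted p = 0.000115). Zfp7 averaged 5.41 ± 0.606 CPM in peroxide libraries and 9.703 ± 0.76 CPM in their vehicle (SD, n = 3 each) and fell by 0.74 ± 0.15 log2 units (SE, limma adjusted p = 0.00173). Zfp706, known in mouse embryonic stem cells as a regulator of self-renewal, had 23.01, 19.9 and 28.6 CPM in peroxide libraries, against 64.9, 42.2 and 35.3 CPM in their vehicle, a fall of 0.93 ± 0.34 log2 units (SE, limma adjusted p = 0.0384). The call for Zfp706 was lost without doxorubicin replicate 3, without peroxide replicate 1, without peroxide replicate 2, without peroxide vehicle replicate 1 or without peroxide vehicle replicate 2 (limma adjusted p = 0.0516, 0.0841, 0.103, 0.147 and 0.0671).

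The treatments share no libraries, so their effects can be set beside each other. The calls are not independent, because the single fit gave both treatments the same estimate of spread for each gene. Across the 275 genes the log2 changes had a Pearson correlation of 0.27 and a Spearman correlation of 0.32, against 0.49 and 0.40 across all tested genes. These are descriptions across genes, which are not independent. Of the 22 genes that rose after doxorubicin, 15 also rose after peroxide, which is 68.2% of the first list and 20.3% of the second. Of the 66 that fell, 14 also fell after peroxide, 21.2% of the first list and 48.3% of the second. A further 12 fell after doxorubicin and rose after peroxide, and 0 did the reverse. Shared and opposite calls were not counted over all tested genes, so whether these shares are particular to the Zfp genes was not tested. In all, 150 genes were called in at least 1 treatment and 125 in neither.

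The 15 genes that rose in both were Zfp36l1, Zfp52, Zfp112, Zfp263, Zfp334, Zfp365, Zfp444, Zfp462, Zfp512b, Zfp618, Zfp622, Zfp651, Zfp652, Zfp809 and Zfp874a. The 14 that fell in both were Zfp7, Zfp91, Zfp101, Zfp207, Zfp236, Zfp280c, Zfp367, Zfp395, Zfp469, Zfp568, Zfp609, Zfp808, Zfp827 and Zfp946. The 12 with opposite calls were Zfp9, Zfp157, Zfp260, Zfp330, Zfp410, Zfp521, Zfp655, Zfp667, Zfp810, Zfp941, Zfp945 and Zfp994. These lists were formed by the calls and are given as a description. In peroxide libraries Zfp651 had 6.27, 5.62 and 4.63 CPM, against 3.01, 2.67 and 2.601 CPM in their vehicle, and its rise of 0.78 ± 0.24 log2 units (SE, limma adjusted p = 0.0172) was lost without peroxide replicate 1 (limma adjusted p = 0.0593). The rise of Zfp667 after peroxide, 0.32 ± 0.12 log2 units (SE, limma adjusted p = 0.0417), was lost without doxorubicin vehicle replicate 1, without peroxide replicate 1, without peroxide replicate 2, without peroxide replicate 3, without peroxide vehicle replicate 1 or without peroxide vehicle replicate 3 (limma adjusted p = 0.0544, 0.0872, 0.0711, 0.0817, 0.111 and 0.107).

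**Figure D2:**
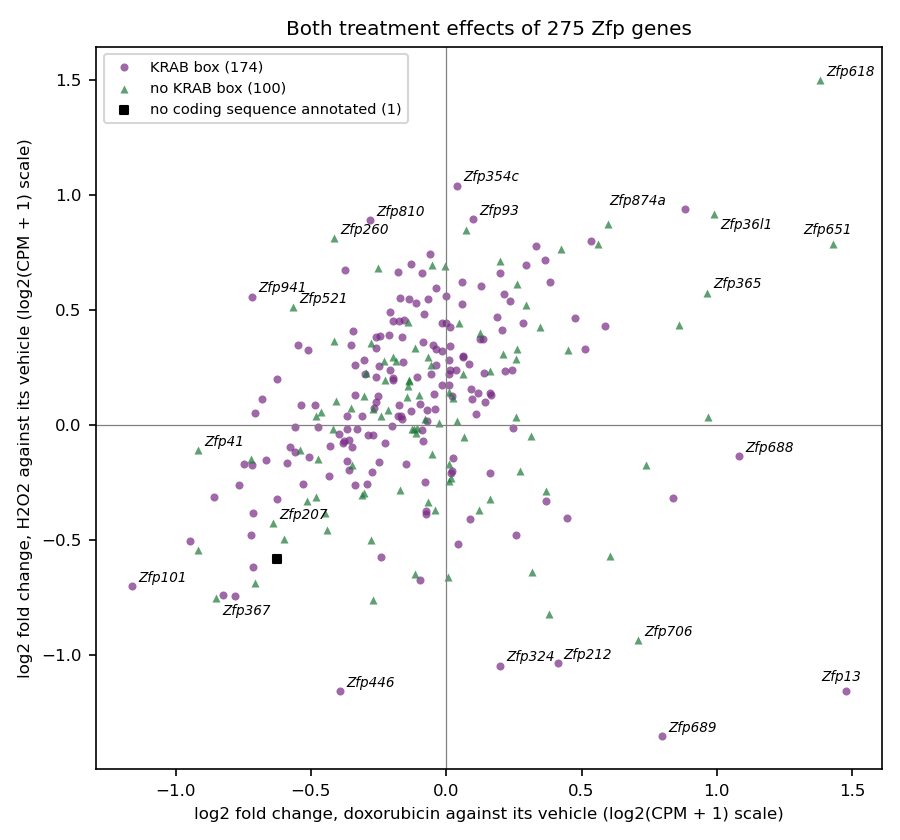
Log2 fold change of the 275 Zfp genes after doxorubicin (horizontal) and after peroxide (vertical), each against its own vehicle on the log2(CPM + 1) scale; circles are the 174 genes with a KRAB box, triangles the 100 without and the square the 1 gene with no annotated coding sequence. Most genes sit near the origin, with Zfp618 at the upper right, Zfp101 at the lower left, and Zfp13 and Zfp689 at the lower right.

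The promoters of 2 genes that rose in both treatments and 2 that fell in both are printed here because these genes moved together in experiments with no shared library. Each is a RefSeq window (GRCm38.p6) running from 250 bases before to 50 bases after the gene start, 5′ to 3′ on the gene's strand. Capitals mark matches on either strand to a few short motifs. The GC box was searched as GGGCGG and the CCAAT box by the letters of its name. The CHR element was searched as TTTGAA, and E2F-type sites as TTTCCCGC, as TTTGGCGC and as TTTCGCGC.
Zfp618 (chr4:62965317-62965616, plus strand): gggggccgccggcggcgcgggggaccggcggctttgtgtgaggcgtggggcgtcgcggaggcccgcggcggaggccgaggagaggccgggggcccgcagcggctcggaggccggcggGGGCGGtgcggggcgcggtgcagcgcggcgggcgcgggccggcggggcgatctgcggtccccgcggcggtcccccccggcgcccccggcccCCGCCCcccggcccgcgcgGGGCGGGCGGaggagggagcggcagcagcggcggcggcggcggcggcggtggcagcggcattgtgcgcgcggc
Zfp365 (chr10:67912613-67912912, minus strand): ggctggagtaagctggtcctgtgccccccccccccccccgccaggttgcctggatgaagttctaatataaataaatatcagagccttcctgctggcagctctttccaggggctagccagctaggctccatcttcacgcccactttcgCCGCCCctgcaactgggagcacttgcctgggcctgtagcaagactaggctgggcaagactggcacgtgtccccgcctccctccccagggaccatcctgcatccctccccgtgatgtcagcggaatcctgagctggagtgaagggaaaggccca
Zfp367 (chr13:64153150-64153449, minus strand): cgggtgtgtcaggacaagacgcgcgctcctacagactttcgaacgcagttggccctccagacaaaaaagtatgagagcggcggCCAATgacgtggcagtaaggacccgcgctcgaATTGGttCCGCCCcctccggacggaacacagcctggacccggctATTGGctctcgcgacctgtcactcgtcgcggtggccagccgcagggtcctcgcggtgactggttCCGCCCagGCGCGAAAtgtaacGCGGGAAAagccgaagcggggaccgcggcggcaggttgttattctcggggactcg
Zfp101 (chr17:33394588-33394887, minus strand): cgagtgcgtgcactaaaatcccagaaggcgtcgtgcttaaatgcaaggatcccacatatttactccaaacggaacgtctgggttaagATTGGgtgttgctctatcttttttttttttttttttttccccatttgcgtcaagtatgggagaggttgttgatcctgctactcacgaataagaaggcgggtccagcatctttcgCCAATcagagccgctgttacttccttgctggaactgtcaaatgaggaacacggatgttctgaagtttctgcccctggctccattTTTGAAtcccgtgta

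Zfp618 held 4 GC box matches, of which a pair overlaps, and Zfp365 held 1. Zfp367 held 2 GC boxes, 3 CCAAT boxes and 2 E2F-type sites. Zfp101 held 2 CCAAT boxes and 1 CHR element. Windows were found for 226 of the 275 genes and compared with 27025 gene promoters of the same length. A CCAAT box was in 51.8% of Zfp windows and 37.9% of all, a GC box in 45.6% and 36.0%, and an E2F-type site in 3.98% and 1.90%. The CHR element was in 16.4% of Zfp windows and 18.1% of all. KRAB genes had a CCAAT box in 56% of their windows and a GC box in 39.3%, and genes without a KRAB box in 43.4% and 57.9%. After doxorubicin an E2F-type site was in 15% of windows of rising and 4.17% of falling genes, and a CHR element in 25% and 14.6%. After peroxide these shares were 4.84% and 5.88%, and 14.5% and 17.6%. A CCAAT box was in 35% of rising and 60.4% of falling genes after doxorubicin, and in 48.4% and 52.9% after peroxide. A GC box was in 45% and 47.9%, and in 41.9% and 29.4%. Only 9 Zfp windows held an E2F-type site, and no split was tested. A match is a description of the sequence and shows no binding.

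The effects of the treatments differed for 66 of the 275 genes, 14 with a more positive change after doxorubicin and 52 with a more negative change, 24.0% in all. Among all tested genes 33.6% differed, 13.5% in the first direction and 20.1% in the second. The median difference was -0.25 log2 units, against -0.07 for all tested genes, and 213 of the 275 differences were below 0. A called difference of at least 1 log2 unit was found in 13 of the 275 genes, against 11.1% of all tested genes. For 54 of the 66 genes the treatment effects had opposite signs. Selection for a called difference favours opposite signs, and neither this count nor the 213 was taken over all tested genes. The doses, times and vehicles of the treatments differ, so a difference covers all of these. The number with a more positive change was 5 without doxorubicin replicate 3, 7 without doxorubicin vehicle replicate 3 or peroxide vehicle replicate 1, and 9 without peroxide vehicle replicate 2. The number with a more negative change was 31 without doxorubicin vehicle replicate 3 and 33 without peroxide vehicle replicate 2.

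Zfp260, which encodes a cofactor of Gata4 in the heart, had 86.7, 72.5 and 81.05 CPM in doxorubicin libraries, against 105, 104 and 112 CPM in their vehicle, and fell by 0.42 ± 0.09 log2 units (SE, limma adjusted p = 0.00209). After peroxide it had 123, 119.9 and 143 CPM in peroxide libraries, against 70.7, 71.8 and 75.7 CPM in their vehicle, and rose by 0.81 ± 0.09 log2 units (SE, limma adjusted p = 1.56e-05). The difference between these effects was -1.23 ± 0.12 log2 units (SE, limma adjusted p = 9.3e-05). Zfp941 had 2.42, 2.82 and 2.38 CPM in doxorubicin libraries, against 4.29, 4.19 and 6.16 CPM in their vehicle, and 4.47, 5.44 and 6.08 CPM in peroxide libraries, against 3.64, 2.72 and 3.53 CPM in their vehicle. It fell by 0.72 ± 0.16 log2 units (SE, limma adjusted p = 0.00295) after doxorubicin and rose by 0.56 ± 0.16 log2 units (SE, limma adjusted p = 0.0119) after peroxide. The call after peroxide was lost without peroxide vehicle replicate 2 (limma adjusted p = 0.0527). The difference for Zfp941 was -1.28 ± 0.22 log2 units (SE, limma adjusted p = 0.00212). For Zfp810 the level was 8.06, 7.79 and 8.85 CPM in doxorubicin libraries and 11.1, 10.1 and 9.54 CPM in their vehicle, a fall of 0.28 ± 0.11 log2 units (SE, limma adjusted p = 0.0442) that was lost without doxorubicin replicate 1, without doxorubicin replicate 2, without doxorubicin vehicle replicate 1, without doxorubicin vehicle replicate 2, without doxorubicin vehicle replicate 3, without peroxide vehicle replicate 1, without peroxide vehicle replicate 2 or without peroxide vehicle replicate 3 (limma adjusted p = 0.0871, 0.119, 0.141, 0.0865, 0.0507, 0.0571, 0.0535 and 0.0548). The difference for Zfp810 was -1.17 ± 0.15 log2 units (SE, limma adjusted p = 0.000386).

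Zfp521, an inhibitor of Ebf1 that holds mesenchymal precursors back from becoming fat cells, had 76.6, 74.4 and 69.1 CPM in doxorubicin libraries, against 104, 110.2 and 114 CPM in their vehicle, a fall of 0.57 ± 0.09 log2 units (SE, limma adjusted p = 0.000273). It had 72.03, 74.9 and 73.2 CPM in peroxide libraries, against 53.4, 44.5 and 56.5 CPM in their vehicle, a rise of 0.51 ± 0.09 log2 units (SE, limma adjusted p = 0.000535). Treated libraries of both experiments thus lay at similar levels, 73.4 ± 3.83 and 73.4 ± 1.45 CPM (SD, n = 3 each). The vehicles stood far apart, at 109 ± 4.88 CPM on day 7 and 51.5 ± 6.21 CPM on day 6, and the difference of effects was -1.08 ± 0.12 log2 units (SE, limma adjusted p = 0.000212). Of the 52 genes with a more negative change after doxorubicin, 20 were also higher in day 7 than in day 6 vehicle. The same vehicle libraries enter both contrasts, and a higher day 7 vehicle by itself makes the difference more negative. This overlap is thus no separate evidence, and it was not counted over all tested genes. In 35 of the 52 every doxorubicin library lay below every peroxide library, which was not counted over all tested genes.

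The largest differences in the other direction were in Zfp13, Zfp689, Zfp706 and Zfp212, and each rested on libraries that spread widely. Zfp13 had 1.17, 0.402 and 0.981 CPM in peroxide libraries, against 6.197, 2.33 and 1.79 CPM in their vehicle, and its difference was 2.64 ± 0.74 log2 units (SE, limma adjusted p = 0.0203), a call lost without doxorubicin replicate 3 (limma adjusted p = 0.0511). For Zfp689 the difference was 2.15 ± 0.48 log2 units (SE, limma adjusted p = 0.0072), with 2.86, 5.901 and 6.86 CPM in doxorubicin libraries, against 3.14, 3.11 and 1.34 CPM in their vehicle. Zfp212 had 7.498, 16.2 and 15.3 CPM in doxorubicin libraries, against 9.37, 10.8 and 7.28 CPM in their vehicle, and a difference of 1.45 ± 0.37 log2 units (SE, limma adjusted p = 0.0135). Zfp706 had 25.01, 68.4 and 43.96 CPM in doxorubicin libraries, against 29.8, 30.2 and 18.3 CPM in their vehicle, and a difference of 1.64 ± 0.48 log2 units (SE, limma adjusted p = 0.0236), lost without doxorubicin replicate 3, without doxorubicin vehicle replicate 3 or without peroxide vehicle replicate 1 (limma adjusted p = 0.0511, 0.0573 and 0.0576). In these 4 genes doxorubicin replicate 1, doxorubicin vehicle replicate 3 and peroxide replicate 2 were each the lowest library of their group. Those are the libraries that stood apart, and without them the differences were 2.66, 1.96, 1.66 and 1.49 log2 units, all past the threshold.

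**Figure D3:**
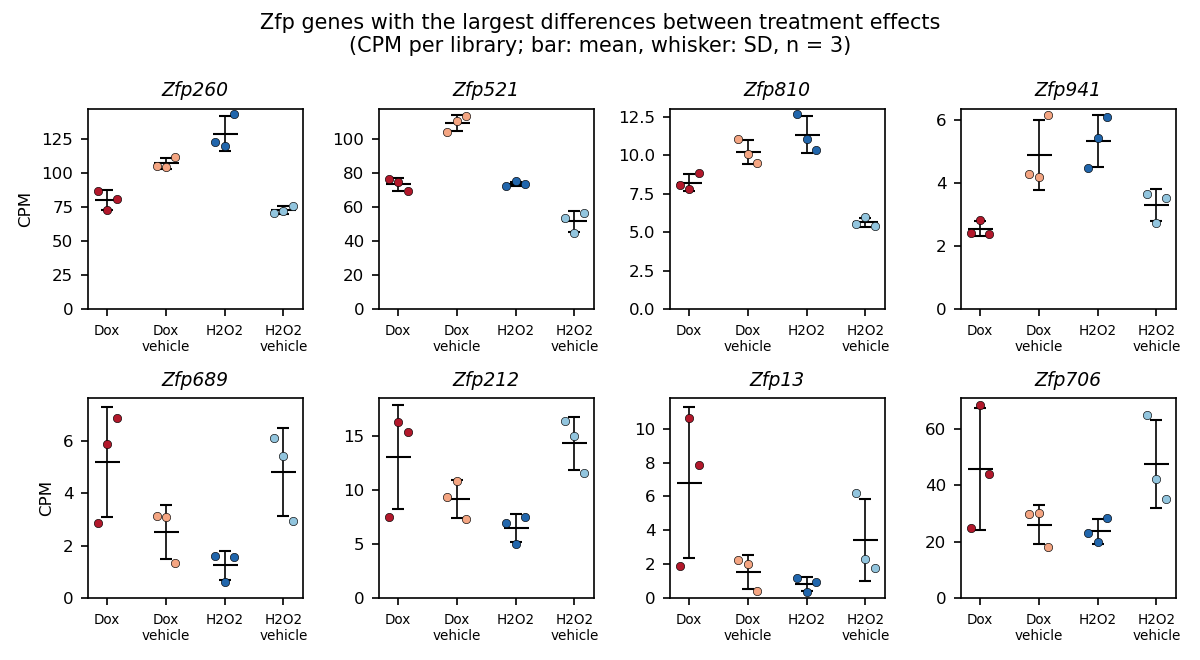
Level in CPM (vertical axis, from 0) of the 4 Zfp genes in each direction with the largest called differences between treatment effects, by library; bars are means and whiskers SD (n = 3), with each treatment (Dox, H2O2) left of its vehicle. In the upper row the peroxide libraries lie above their vehicle and the doxorubicin libraries below theirs, and in the lower row the libraries of single groups spread widely.

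Day 7 vehicle differed from day 6 vehicle in 39 of the 275 genes, 28 higher and 11 lower, 14.2% in all. Among all tested genes the share was 28.0%, with 15.1% higher and 12.9% lower. In 1 of the 275 genes the called change was at least 1 log2 unit, against 3.39% of all tested genes. These vehicles serve as the controls of the treatment comparisons. Zfp521 had the largest increase, 1.08 ± 0.09 log2 units (SE, limma adjusted p = 1.31e-05). Zfp667, with 9.87, 8.07 and 10.6 CPM in day 7 vehicle libraries, against 4.78, 5.43 and 4.74 CPM in day 6 vehicle libraries, was higher by 0.81 ± 0.12 log2 units (SE, limma adjusted p = 0.000612). Zfp810 was higher by 0.76 ± 0.11 log2 units (SE, limma adjusted p = 0.000428) and Zfp41 by 0.76 ± 0.21 log2 units (SE, limma adjusted p = 0.021), of which the call for Zfp41 was lost without doxorubicin vehicle replicate 1, without peroxide vehicle replicate 2 or without peroxide vehicle replicate 3 (limma adjusted p = 0.0778, 0.0746 and 0.0648). Zfp948 had 22.8, 28.2 and 27.7 CPM in day 7 vehicle libraries, against 44.9, 45.2 and 38.6 CPM in day 6 vehicle libraries, and was at -0.69 log2 units relative to day 6 (limma adjusted p = 0.00094). Zfp280c, Zfp469 and Zfp131 were at -0.57, -0.56 and -0.55 log2 units (limma adjusted p = 0.0305, 0.0425 and 0.00289). The call for Zfp280c was lost without doxorubicin vehicle replicate 1, without peroxide vehicle replicate 1, without peroxide vehicle replicate 2 or without peroxide vehicle replicate 3 (limma adjusted p = 0.115, 0.0941, 0.0668 and 0.0662), and that for Zfp469 without doxorubicin vehicle replicate 1, without doxorubicin vehicle replicate 3, without peroxide vehicle replicate 1, without peroxide vehicle replicate 2 or without peroxide vehicle replicate 3 (limma adjusted p = 0.148, 0.0909, 0.0722, 0.13 and 0.0853). The number higher was 15 without doxorubicin vehicle replicate 3, 16 without peroxide vehicle replicate 2 and 18 without doxorubicin vehicle replicate 1. The number lower was 5 without peroxide vehicle replicate 2 and 7 without doxorubicin vehicle replicate 1 or peroxide vehicle replicate 1.

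Genes with known roles were grouped into lists, and each list is described by its counts and the share called, to be set beside the 49.9% of all tested genes called after doxorubicin and the 50.7% called after peroxide. The proteins of the Zfp36 family bind AU-rich elements in mRNAs and speed their decay, and 3 of its 4 genes were members. After doxorubicin 1 rose and 0 fell (33.3% called), and after peroxide 2 rose and 1 fell (100%). Zfp36l1 had 21.9, 50.1 and 40.8 CPM in doxorubicin libraries, against 20.1, 18.2 and 14.5 CPM in their vehicle, and rose by 0.99 ± 0.30 log2 units (SE, limma adjusted p = 0.019), a call lost without doxorubicin replicate 2, without doxorubicin replicate 3 or without doxorubicin vehicle replicate 3 (limma adjusted p = 0.0815, 0.0654 and 0.0675). It had 25.2, 17.8 and 31.9 CPM in peroxide libraries, against 17.3, 10.7 and 10.2 CPM in their vehicle, and rose by 0.92 ± 0.30 log2 units (SE, limma adjusted p = 0.0265), a call lost without peroxide replicate 1, without peroxide replicate 3, without peroxide vehicle replicate 2 or without peroxide vehicle replicate 3 (limma adjusted p = 0.0659, 0.0948, 0.0857 and 0.0885). The treated libraries were the highest but spread widely, and 59.99% of its windows are shared with other transcripts.

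Zfp36, which encodes tristetraprolin, had 38.2, 34.6 and 33.3 CPM in peroxide libraries, against 28.7, 26.9 and 28.1 CPM in their vehicle, a rise of 0.33 ± 0.11 log2 units (SE, limma adjusted p = 0.0243) that was lost without peroxide replicate 1, without peroxide vehicle replicate 2 or without peroxide vehicle replicate 3 (limma adjusted p = 0.088, 0.0759 and 0.0523). After doxorubicin it was at 0.26 log2 units (limma adjusted p = 0.0634), and it passed without doxorubicin replicate 1 (limma adjusted p = 0.00765). Zfp36l2 had 37.9, 38.9 and 42.8 CPM in peroxide libraries, against 51.2, 49.6 and 50.5 CPM in their vehicle, a fall of 0.33 ± 0.10 log2 units (SE, limma adjusted p = 0.0173), lost without peroxide replicate 1 or without peroxide vehicle replicate 1 (limma adjusted p = 0.0592 and 0.0511). Day 7 vehicle was higher than day 6 vehicle for Zfp36 (0.63 log2 units, limma adjusted p = 0.00137) and lower for Zfp36l2 (-0.51 log2 units, limma adjusted p = 0.00349).

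Of 12 genes of RNA binding, ribosomes and the spindle, 11 were members. After doxorubicin 2 rose and 4 fell (54.5% called), and after peroxide 1 rose and 2 fell (27.3%). Zfp207 had 193, 174 and 179 CPM in doxorubicin libraries, against 274, 278 and 299 CPM in their vehicle, and 228, 242 and 239 CPM in peroxide libraries, against 312, 327 and 314 CPM in their vehicle. The treated libraries of Zfp207 were all lower, by 0.64 ± 0.06 log2 units (SE, limma adjusted p = 6.73e-06) after doxorubicin and by 0.43 ± 0.06 log2 units (SE, limma adjusted p = 0.000136) after peroxide. Zfp622, whose yeast counterpart matures the large ribosomal subunit, had 11.1, 10.2 and 11.2 CPM in peroxide libraries, against 6.82, 6.53 and 6.82 CPM in their vehicle, a rise of 0.61 ± 0.09 log2 units (SE, limma adjusted p = 0.000178). Its rise of 0.26 ± 0.09 log2 units (SE, limma adjusted p = 0.0314) after doxorubicin was lost without doxorubicin replicate 1, without doxorubicin replicate 2, without doxorubicin vehicle replicate 1, without doxorubicin vehicle replicate 2 or without doxorubicin vehicle replicate 3 (limma adjusted p = 0.0726, 0.08, 0.0979, 0.0546 and 0.06). Zfp830, needed for survival of the early mouse embryo, had 16.4, 18.3 and 18.5 CPM in doxorubicin libraries, against 23.4, 25.1 and 23.03 CPM in their vehicle and fell by 0.41 ± 0.08 log2 units (SE, limma adjusted p = 0.00195). Zfp318 fell by 0.47 ± 0.13 log2 units (SE, limma adjusted p = 0.0115) after doxorubicin, and was at -0.43 log2 units without the 3 libraries that stood apart (limma adjusted p = 0.0564). Zfp598, a ubiquitin ligase that senses collided ribosomes, was at -0.04 log2 units after doxorubicin and -0.37 after peroxide (limma adjusted p = 0.854 and 0.0968), and passed after peroxide without peroxide replicate 2 (limma adjusted p = 0.0189).

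Of 10 genes of imprinting and retroelement control, 7 were members. After doxorubicin 1 rose and 2 fell (42.9% called), and after peroxide 1 rose and 1 fell (28.6%). Zfp809, a KRAB protein that in mouse stem cells silences retroviruses through their tRNA primer binding site, rose in both. It had 26.1, 23.1 and 26.8 CPM in doxorubicin libraries, against 15.7, 18.2 and 17.5 CPM in their vehicle, an increase of 0.54 ± 0.09 log2 units (SE, limma adjusted p = 0.000518). After peroxide it had 28.6, 27.3 and 27.99 CPM in peroxide libraries, against 16.03, 14.5 and 16.4 CPM in their vehicle, an increase of 0.8 ± 0.09 log2 units (SE, limma adjusted p = 2.45e-05). All treated libraries of Zfp809 were higher than all vehicle libraries. Zfp568, which in the mouse represses a placental transcript of Igf2, had 2.79, 2.37 and 3.999 CPM in doxorubicin libraries, against 4.29, 5.84 and 6.77 CPM in their vehicle and fell by 0.71 ± 0.19 log2 units (SE, limma adjusted p = 0.00848). Without the 3 libraries that stood apart it was at -0.55 log2 units (limma adjusted p = 0.0541). Its fall after peroxide, 0.62 ± 0.19 log2 units (SE, limma adjusted p = 0.017), was lost without peroxide replicate 1 or without peroxide vehicle replicate 2 (limma adjusted p = 0.0682 and 0.0655). Zfp961 had 4.56, 4.84 and 4.82 CPM in doxorubicin libraries, against 7.105, 7.98 and 8.52 CPM in their vehicle and fell by 0.62 ± 0.14 log2 units (SE, limma adjusted p = 0.00348). Zfp57, which keeps DNA methylation on imprinted regions, was at 0.16 log2 units after doxorubicin and -0.21 after peroxide. Zfp445, which acts with it, was at -0.21 and 0.24 log2 units. Neither passed the test in either treatment (limma adjusted p = 0.614 and 0.512 for Zfp57, 0.233 and 0.175 for Zfp445), though Zfp445 passed after doxorubicin without doxorubicin replicate 1 (limma adjusted p = 0.0435).

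All 14 genes of the chromatin list were members. After doxorubicin 2 rose and 5 fell (50% called), and after peroxide 3 rose and 2 fell (35.7%). Zfp277, which in mouse fibroblasts represses the Ink4a/Arf locus together with Polycomb proteins, had 24.3, 25.1 and 27.9 CPM in doxorubicin libraries, against 42.6, 42.2 and 44.5 CPM in their vehicle, a fall of 0.72 ± 0.08 log2 units (SE, limma adjusted p = 2.65e-05). After peroxide it had 31.98, 32.9 and 29.6 CPM in peroxide libraries, against 33.5, 33.9 and 37.7 CPM in their vehicle, at -0.15 log2 units (limma adjusted p = 0.152). The difference of effects for Zfp277 was -0.57 ± 0.11 log2 units (SE, limma adjusted p = 0.00434). Zfp652 had 39.9, 46.7 and 42.3 CPM in doxorubicin libraries, against 26.6, 29.9 and 27.6 CPM in their vehicle, and rose by 0.6 ± 0.11 log2 units (SE, limma adjusted p = 0.00107). Zfp462 averaged 12.2 ± 2.29 CPM in doxorubicin libraries and 7.85 ± 0.248 CPM in their vehicle (SD, n = 3 each), and 12.8 ± 0.815 CPM in peroxide libraries and 7.06 ± 1.48 CPM in their vehicle (SD, n = 3 each), with increases of 0.56 ± 0.15 log2 units (SE, limma adjusted p = 0.00938) and 0.79 ± 0.15 log2 units (SE, limma adjusted p = 0.00115). Zfp292 had 25.7, 22.7 and 28.1 CPM in doxorubicin libraries, against 30.2, 38.2 and 38.3 CPM in their vehicle and fell by 0.46 ± 0.12 log2 units (SE, limma adjusted p = 0.00878). Zfp609, a partner of the cohesin loader Nipbl, averaged 3.63 ± 0.487 CPM in doxorubicin libraries and 5.45 ± 0.397 CPM in their vehicle (SD, n = 3 each) and fell by 0.48 ± 0.11 log2 units (SE, limma adjusted p = 0.00498), and its fall of 0.31 ± 0.11 log2 units (SE, limma adjusted p = 0.0404) after peroxide was lost without doxorubicin vehicle replicate 1, without peroxide replicate 1, without peroxide replicate 2, without peroxide replicate 3, without peroxide vehicle replicate 1, without peroxide vehicle replicate 2 or without peroxide vehicle replicate 3 (limma adjusted p = 0.0543, 0.0547, 0.056, 0.121, 0.0543, 0.0926 and 0.108). The fall of Zfp827 after peroxide, 0.54 ± 0.19 log2 units (SE, limma adjusted p = 0.0371), was lost without peroxide replicate 1, without peroxide replicate 2, without peroxide replicate 3, without peroxide vehicle replicate 1 or without peroxide vehicle replicate 3 (limma adjusted p = 0.0614, 0.0932, 0.0661, 0.138 and 0.0855). Zfp410, which activates the NuRD gene Chd4, fell by 0.23 ± 0.07 log2 units (SE, limma adjusted p = 0.0171) after doxorubicin and rose by 0.19 ± 0.07 log2 units (SE, limma adjusted p = 0.034) after peroxide, with all groups apart. The first call was lost without doxorubicin replicate 2 or without doxorubicin vehicle replicate 3 (limma adjusted p = 0.0582 and 0.0724), and the second without peroxide replicate 1, without peroxide replicate 2, without peroxide vehicle replicate 1, without peroxide vehicle replicate 2 or without peroxide vehicle replicate 3 (limma adjusted p = 0.069, 0.0965, 0.087, 0.0731 and 0.0709). Median-of-ratios scaling, TMM scaling and GC correction also ended the doxorubicin call of Zfp410 (limma adjusted p = 0.106, 0.074 and 0.0591). Zfp644, Zfp592, Zfp687, Zfp335 and Zfp518b passed in neither treatment, with log2 changes from -0.32 to 0.16.

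Of 11 genes of mesenchymal, fat and mammary biology, 8 were members. After doxorubicin 1 rose and 3 fell (50% called), and after peroxide 3 rose and 3 fell (75%). Besides Zfp521, Zfp516, an activator of brown fat genes in the mouse, had 11.9, 11.2 and 13.1 CPM in peroxide libraries, against 8.64, 5.81 and 6.99 CPM in their vehicle, a rise of 0.69 ± 0.18 log2 units (SE, limma adjusted p = 0.00678). After doxorubicin Zfp516 was at -0.05 log2 units (limma adjusted p = 0.817). Zfp395 had 6.94, 11.3 and 9.05 CPM in doxorubicin libraries, against 14.3, 13.6 and 14.2 CPM in their vehicle, a fall of 0.6 ± 0.16 log2 units (SE, limma adjusted p = 0.00886), and its fall of 0.5 ± 0.16 log2 units (SE, limma adjusted p = 0.0218) after peroxide was lost without peroxide replicate 2, without peroxide replicate 3, without peroxide vehicle replicate 2 or without peroxide vehicle replicate 3 (limma adjusted p = 0.0712, 0.0501, 0.0716 and 0.0682). Zfp469, mutated in human brittle cornea syndrome, had 1.77, 1.54 and 2.297 CPM in doxorubicin libraries, against 2.71, 4.103 and 3.49 CPM in their vehicle, and 4.19, 2.32 and 3.69 CPM in peroxide libraries, against 5.003, 6.003 and 5.43 CPM in their vehicle. It fell by 0.62 ± 0.18 log2 units (SE, limma adjusted p = 0.0153), lost without doxorubicin replicate 2 or without doxorubicin vehicle replicate 2 (limma adjusted p = 0.058 and 0.0619), and by 0.58 ± 0.18 log2 units (SE, limma adjusted p = 0.0211), lost without peroxide replicate 2 or without peroxide vehicle replicate 2 (limma adjusted p = 0.078 and 0.0709). Zfp217, whose human gene is amplified in breast cancers, was at 0.06 and 0.22 log2 units (limma adjusted p = 0.757 and 0.249).

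Of 10 genes tied to p53 and genome stability, 8 were members. After doxorubicin 2 rose and 2 fell (50% called), and after peroxide 3 rose and 2 fell (62.5%). Zfp365 had 38.8, 35.9 and 38.2 CPM in peroxide libraries, against 25.6, 21.8 and 27.6 CPM in their vehicle, a rise of 0.58 ± 0.09 log2 units (SE, limma adjusted p = 0.00039), which was smaller than its rise after doxorubicin by 0.39 ± 0.13 log2 units (SE, limma adjusted p = 0.0435). That difference remained called without doxorubicin replicate 1, doxorubicin vehicle replicate 2 or peroxide vehicle replicate 2, and was lost without each of the other libraries (limma adjusted p = 0.0581 to 0.0951). Its vehicles differed as well, with day 7 at -0.47 log2 units relative to day 6 (limma adjusted p = 0.00344). Zfp148, a transcription factor that binds p53, had 48.7, 36.3 and 51.2 CPM in peroxide libraries, against 32.3, 32.9 and 36.3 CPM in their vehicle, a rise of 0.4 ± 0.11 log2 units (SE, limma adjusted p = 0.0122). Zfp280c averaged 10.1 ± 1.31 CPM in doxorubicin libraries and 17.3 ± 2.78 CPM in their vehicle (SD, n = 3 each) and 16.02 ± 3.87 CPM in peroxide libraries and 25.9 ± 1.14 CPM in their vehicle (SD, n = 3 each), falling by 0.71 ± 0.17 log2 units (SE, limma adjusted p = 0.00573) and 0.69 ± 0.17 log2 units (SE, limma adjusted p = 0.00652). Zfp420 averaged 5.54 ± 1.19 CPM in peroxide libraries and 3.08 ± 0.788 CPM in their vehicle (SD, n = 3 each) and rose by 0.68 ± 0.18 log2 units (SE, limma adjusted p = 0.0088). Zfp668, linked to DNA repair in human cells, had 7.24, 4.11 and 8.502 CPM in peroxide libraries, against 11.3, 10.6 and 10.04 CPM in their vehicle, and its fall of 0.66 ± 0.25 log2 units (SE, limma adjusted p = 0.0478) was lost without doxorubicin replicate 3, without doxorubicin vehicle replicate 1, without doxorubicin vehicle replicate 2, without peroxide replicate 1, without peroxide replicate 2, without peroxide vehicle replicate 1, without peroxide vehicle replicate 2 or without peroxide vehicle replicate 3 (limma adjusted p = 0.0608, 0.0508, 0.0599, 0.0612, 0.176, 0.116, 0.0995 and 0.0777).

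Of 13 other transcription factor genes, 10 were members. After doxorubicin 1 rose and 2 fell (30% called), and after peroxide 3 rose and 3 fell (60%). Zfp91, a zinc finger protein with ubiquitin ligase activity, had 37.3, 33.3 and 32.7 CPM in doxorubicin libraries, against 46.9, 47.2 and 47.5 CPM in their vehicle, and 37.5, 35.1 and 36.1 CPM in peroxide libraries, against 49.98, 44.4 and 48.5 CPM in their vehicle. It fell by 0.45 ± 0.07 log2 units (SE, limma adjusted p = 0.000497) after doxorubicin and by 0.38 ± 0.07 log2 units (SE, limma adjusted p = 0.00127) after peroxide, with treated libraries all lower. Zfp263 averaged 49.4 ± 7.54 CPM in doxorubicin libraries and 35.7 ± 3.99 CPM in their vehicle (SD, n = 3 each) and rose by 0.45 ± 0.12 log2 units (SE, limma adjusted p = 0.00985), while its rise of 0.33 ± 0.12 log2 units (SE, limma adjusted p = 0.0426) after peroxide was lost without doxorubicin vehicle replicate 1, without peroxide replicate 1, without peroxide replicate 3, without peroxide vehicle replicate 2 or without peroxide vehicle replicate 3 (limma adjusted p = 0.0569, 0.108, 0.108, 0.097 and 0.128). Zfp143, an activator of small nuclear RNA genes and many promoters, had 21.9, 28.7 and 18.1 CPM in peroxide libraries, against 30.6, 32.2 and 34.04 CPM in their vehicle, and its fall of 0.5 ± 0.16 log2 units (SE, limma adjusted p = 0.0204) was lost without peroxide replicate 1, without peroxide replicate 3, without peroxide vehicle replicate 2 or without peroxide vehicle replicate 3 (limma adjusted p = 0.0556, 0.0762, 0.0516 and 0.0625). Zfp281 was at -0.03 and 0.01 log2 units, and Zfp24 was at 0.01 and -0.17 log2 units, and neither passed (limma adjusted p = 0.88, 0.968, 0.956 and 0.373).

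**Figure D4:**
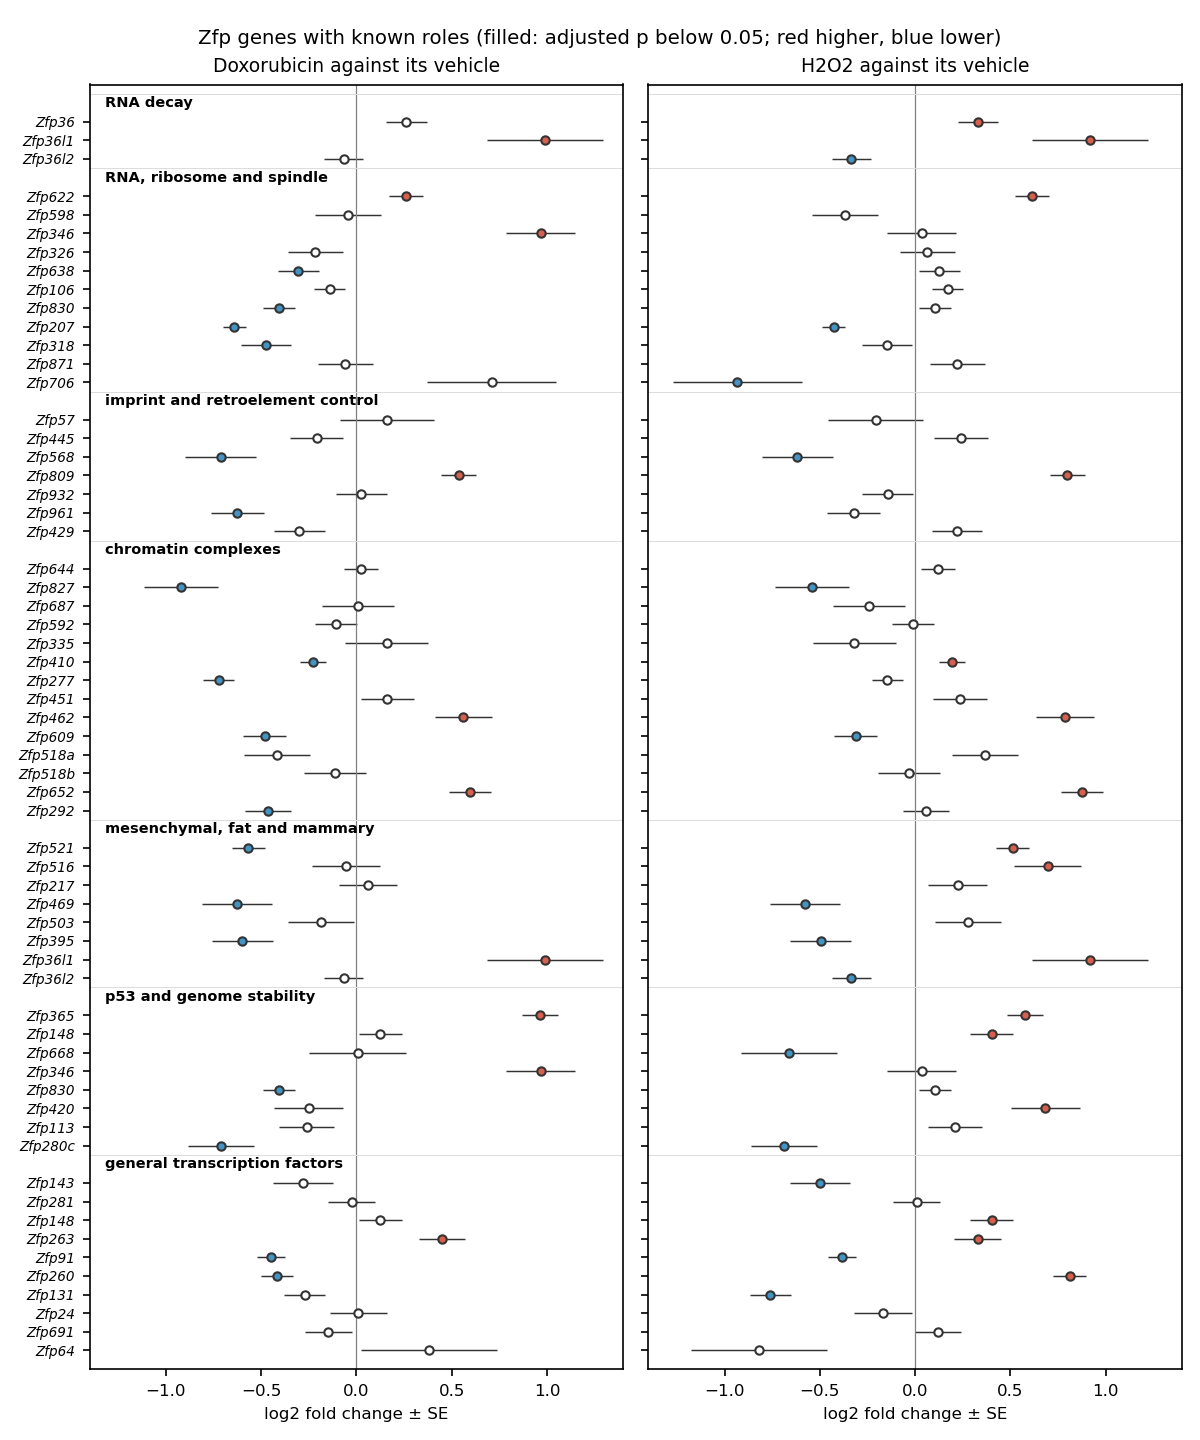
Log2 fold change (horizontal axis, log2(CPM + 1) scale) with its SE for every member of the role lists, after doxorubicin (left) and after peroxide (right), each against its vehicle; filled points passed an adjusted p of 0.05, red for higher and blue for lower. Zfp809, Zfp652, Zfp462 and Zfp365 are filled red in both panels, Zfp207, Zfp91 and Zfp280c blue in both, and Zfp521, Zfp260 and Zfp410 change colour between panels.

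Of the 275 genes, 174 encoded a KRAB box in at least 1 annotated coding transcript, 100 did not, and Zfp469 had no coding sequence annotated. After doxorubicin 8 of the 174 KRAB genes rose and 42 fell (28.7% called), and 14 of the 100 others rose and 23 fell (37%). After peroxide 48 KRAB genes rose and 12 fell (34.5% called), and 26 of the others rose and 16 fell (42%). These shares were below those of all tested genes, 49.9% and 50.7%. Median log2 changes were -0.12 for KRAB genes and -0.09 for the others after doxorubicin, and 0.13 and 0.05 after peroxide.

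KRAB genes also had transcripts of lower GC content, with a median of 42.5% against 48.7% for the others. Across the 275 genes the change after doxorubicin had a Pearson correlation of 0.37 with GC content, and the change after peroxide one of -0.10. In the third of the genes with the lowest GC content 3 rose and 28 fell after doxorubicin (median -0.20), and in the third with the highest 16 rose and 11 fell (median 0.03). When each library was corrected for GC content, the median after doxorubicin was 0.02 for KRAB genes and -0.08 for the others. The correction left 20 KRAB genes rising and 23 falling after doxorubicin. After peroxide the corrected medians were 0.17 for KRAB genes and 0.09 for the others, with 56 KRAB genes rising and 12 falling. Whether GC content has a part in the counts without the correction was not tested.

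The genes were also grouped by the number of C2H2 fingers in the annotated protein, and 10 had none by the pattern. Median changes after peroxide were -0.11 in 49 genes with 1 to 5 fingers, 0.04 in 61 with 6 to 9, 0.15 in 96 with 10 to 14, and 0.23 in 58 with 15 or more. After GC correction these medians were -0.08, 0.08, 0.18 and 0.25. In genes with 15 or more fingers 20 rose and 6 fell after peroxide, and in genes with 1 to 5 fingers 10 rose and 11 fell, or 11 and 10 after GC correction. The Pearson correlation between finger number and the change after peroxide was 0.13 across genes, a weak relation. After doxorubicin the medians were -0.13, -0.15, -0.09 and -0.10 in the same order.

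By position, 156 of the 275 genes lay in 36 clusters, in which neighbours start within 200 kb of each other, and chromosomes 7, 17 and 13 held 64, 44 and 22 genes. The largest cluster ran from Zfp677 to Zfp946 on chromosome 17 (21383748 to 22456689, mm10) and held 18 KRAB genes. In it 1 gene rose and 5 fell after doxorubicin, and 5 rose and 2 fell after peroxide. The cluster from Zfp84 to Zfp146 on chromosome 7 (29768552 to 30169750) held 15 genes, of which 0 rose and 5 fell after doxorubicin, and 6 rose and 2 fell after peroxide. Zfp260 and Zfp568 lie in it and moved in opposite directions after peroxide. The 12 genes from Zfp429 to Zfp273 on chromosome 13 had 1 rising and 1 falling after doxorubicin, and 4 rising and 0 falling after peroxide. The 7 genes from Zfp60 to Zfp850 on chromosome 7 had the highest cluster median after peroxide among clusters of 5 or more, 0.47 log2 units, with 4 rising and 0 falling. Neighbours of 1 cluster share sequence and position, so they are not independent. Among all tested genes 49.9% were called after doxorubicin and 50.7% after peroxide, and no cluster was tested as a set.

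The 5 genes from Zfp747 to Zfp629 on chromosome 7 (127372537 to 127615797), which include Zfp688 and Zfp689, lie in another such cluster. Their median was 0.45 after doxorubicin and -0.13 after peroxide, and 3 of the 5 had a more positive change after doxorubicin at an adjusted p below 0.05. Among all tested genes 13.5% had such a change, and this cluster was not tested as a set. Zfp688 and Zfp689 have GC contents of 56.2% and 55.3%, against a median of 44.1% for the 275 genes. In the whole set, clustered genes were called in 26.9% of cases after doxorubicin and 35.3% after peroxide, and genes outside clusters in 38.7% and 40.3%. Over 10% of the windows were shared in 88 genes, of which 28.4% were called after doxorubicin and 27.3% after peroxide, against 33.7% and 42.2% of the other 187.

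**Figure D5:**
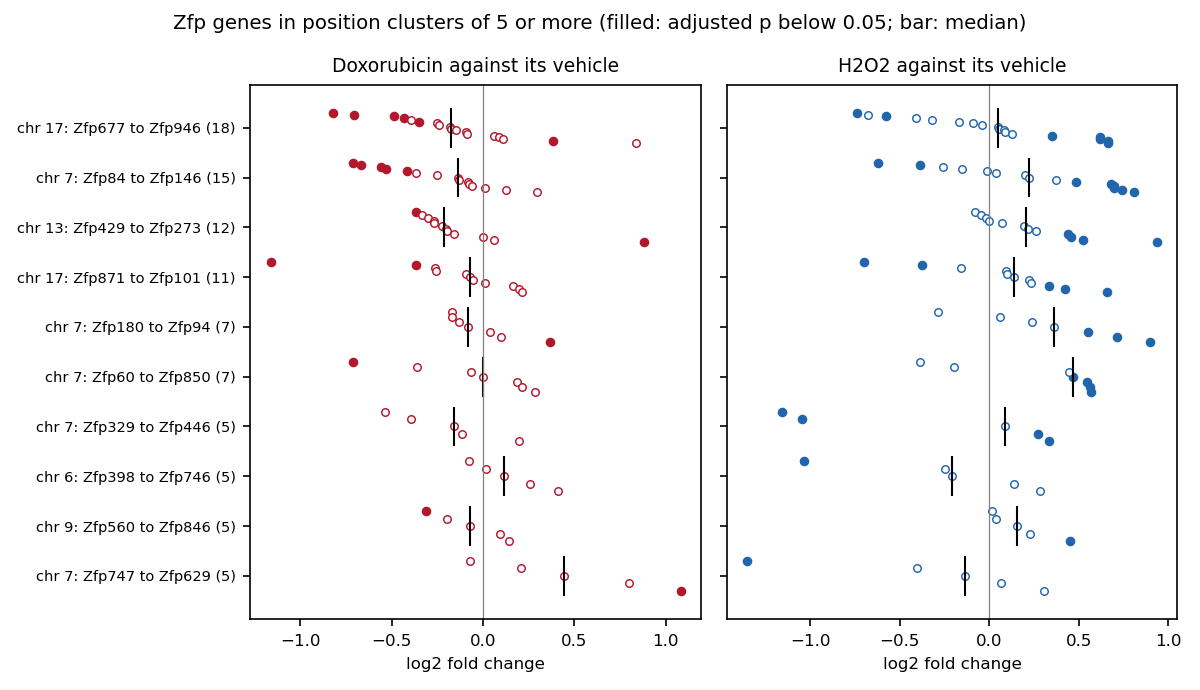
Log2 fold change (horizontal axis, log2(CPM + 1) scale) of Zfp genes in the 10 position clusters of at least 5 members, after doxorubicin (left) and peroxide (right); each point is a gene, filled points passed an adjusted p of 0.05 and bars are medians. Medians after peroxide lie above 0 in the 5 clusters of 7 to 15 genes and at 0.05 in the cluster of 18, and each cluster holds genes on both sides of 0 in at least 1 panel.

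KRAB proteins act through partners, and 23 of 24 listed corepressor genes were tested. After doxorubicin 4 rose and 8 fell (52.2% called, median -0.20), and after peroxide 2 rose and 11 fell (56.5% called, median -0.46), against 49.9% and 50.7% of all tested genes. Trim28, the scaffold that KRAB boxes bind, was at -0.37 log2 units after doxorubicin and -0.46 after peroxide (limma adjusted p = 0.0298 and 0.00957). Setdb1, which methylates histone H3, was at -0.32 and -0.37 log2 units (limma adjusted p = 0.071 and 0.0394). The HP1 genes Cbx3 and Cbx5 fell by 0.82 and 0.63 log2 units after doxorubicin, and by 0.74 and 0.51 after peroxide (limma adjusted p = 3.17e-05, 1.56e-05, 6.28e-05 and 6.64e-05). The remaining HP1 gene Cbx1 was at 0.12 log2 units after doxorubicin and -0.91 after peroxide (limma adjusted p = 0.776 and 0.0305). Other zinc finger families were counted by symbol, and the shares called after doxorubicin and after peroxide are given in brackets. In 29 Zbtb genes 2 rose and 5 fell after doxorubicin, and 5 rose and 4 fell after peroxide (24.1% and 31.03%). In 11 Klf genes 0 rose and 7 fell after doxorubicin, and 3 rose and 3 fell after peroxide (63.6% and 54.5%). In 7 Zkscan genes 2 rose and 1 fell after doxorubicin, and 5 rose and 0 fell after peroxide (42.9% and 71.4%).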

How the data were processed

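RNA from the 12 libraries was sequenced on an Illumina instrument, per the labels' protocols. The submitters' processing notes name bcl2fastq, DRAGEN and mm10, with no versions, while strand handling is not given in the sources used here. Deposited was a table with CPM values that the authors made per gene, and no raw counts. Its steps come out as estimated reads of which 74.6 to 79.8% of low values are whole (tolerance 0.001), so no count model was used. Of 55774 lines, 287 repeated an identifier with identical values, and 55487 genes were kept.

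The 13280 genes that reached 1 CPM in 3 or more libraries entered 1 limma fit (limma 3.58.1, R 4.3.3) of log2(CPM + 1) over the 4 groups, with a mean-variance trend and 8 residual degrees of freedom. Contrasts were each treatment against its vehicle, the difference of these effects, and day 7 against day 6 vehicle. The last 2 share control libraries with the treatment contrasts. Benjamini-Hochberg adjustment covered all tested genes, with a threshold of 0.05. The fit was tested on simulated data.

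Genes were matched by identifier to GENCODE M21 (GRCm38, mm10). KRAB boxes were found with a profile of 195 seed sequences (pyhmmer 0.12.3, E-value up to 0.001), fingers by the C2H2 pattern, and shared sequence as 31-base windows found in transcripts of other genes. The GC correction is a loess curve (span 0.5) in each library. Tables were made with pandas 2.3.3 and numpy 2.4.6 in Python 3.11.15, and figures with matplotlib 3.10.9.

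The genes described, the role lists and the tests were chosen with earlier results of these data known. Named in full were the 8 largest called changes in each direction per treatment with no overlap between groups, the 4 largest for the other contrasts, and members of the role lists. Zfp13 after doxorubicin, genes in more than 1 list of calls, and clusters named beyond that were chosen after their values were seen. Alternatives covered the pseudocount, the filter, scaling, the variance model, separate fits, a replicate block, GC correction, thresholds and leaving out each library. Leaving out the 3 libraries that stood apart was chosen after seeing the data.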

Additional observations from a re-analysis of the deposited data

Results flagged for a closer look

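For 25 of the named genes, the effect of doxorubicin on log2(CPM + 1) differed from that of peroxide. The test was the limma contrast of both effects, at an adjusted p below 0.05. Genes were named for large changes, for the largest called differences or from the role lists. Zfp13, Zfp689, Zfp706, Zfp212, Zfp941, Zfp260, Zfp810 and Zfp521 had the largest called differences, and passing this test was a condition of that selection. The 25 is thus partly set by the selection. Among all tested genes 33.6% differed, and no share of the named genes is set beside it. A positive value means a more positive change after doxorubicin. The differences were 2.64 for Zfp13, 2.15 for Zfp689, 1.64 for Zfp706, 1.45 for Zfp212, 1.24 for Zfp324, 1.22 for Zfp688, 0.94 for Zfp346, 0.49 for Zfp131 and 0.39 for Zfp365. They were -1.28 for Zfp941, -1.23 for Zfp260, -1.17 for Zfp810, -1.08 for Zfp521, -1.001 for Zfp354c, -0.93 for Zfp420, -0.84 for Zfp667, -0.80 for Zfp93, -0.78 for Zfp518a and -0.78 for Zfp174. They were -0.75 for Zfp516, -0.57 for Zfp277, -0.52 for Zfp292, -0.51 for Zfp830, -0.43 for Zfp638 and -0.42 for Zfp410. Leaving out 1 library ended the call in at least 1 case for Zfp13, Zfp131, Zfp174, Zfp292, Zfp365, Zfp516, Zfp518a, Zfp638 and Zfp706.

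The vehicles of both experiments enter each of these values. Day 7 vehicle was higher than day 6 vehicle, at an adjusted p below 0.05 by limma, for Zfp521 (1.08), Zfp667 (0.81), Zfp810 (0.76), Zfp260 (0.55), Zfp93 (0.54) and Zfp277 (0.29), and lower for Zfp131 (-0.55) and Zfp365 (-0.47), in log2 units.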

How the results depend on the processing

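Of 152 named results, 0 of those past the threshold changed sign in any setting, and 20 of those not past it did so in at least 1, among them Zfp281 after doxorubicin. Of the 152, 57 kept their side of the threshold in all 27 settings, and over all of them 3786 values kept it, 247 lost the call and 56 gained it. Counts are given as genes rising and falling, and for the difference as more positive and more negative after doxorubicin; the cause of each shift was not tested unless the setting itself is stricter. At an adjusted p below 0.01 the counts were 11 and 39 for doxorubicin, 43 and 14 for peroxide, 1 and 21 for the difference, and 11 and 4 for the vehicles. With an absolute log2 change of at least 1 added, they were 4 and 1, 2 and 4, 7 and 6, and 1 and 0, so that the larger of both counts changed sides for all but the vehicles. Array weights gave 46 rising after doxorubicin, 22 more positive differences, and 55 and 23 for the vehicles. GC correction gave 42 falling after doxorubicin. With no filter the difference had 6 and 30 and the vehicles 7 lower.

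Deviations from the group means of same-numbered treated and vehicle libraries correlated at -0.311, 0.194 and -0.277 for doxorubicin and 0.143, 0.0304 and -0.237 for peroxide. Libraries with different numbers correlated at -0.291 to 0.399 for doxorubicin and -0.242 to 0.246 for peroxide. Whether the numbers pair the samples cannot be told from these values. A replicate block gave 17 and 59 for doxorubicin, 65 and 21 for peroxide, 6 and 35 for the difference, and 19 and 9 for the vehicles. The replicate block with GC correction gave 39 falling after doxorubicin, and 9 and 32 for the difference. With the block and the correction, Zfp292 after doxorubicin was at -0.25 log2 units (limma adjusted p = 0.0572) and the difference for Zfp277 at -0.42 (limma adjusted p = 0.075), and with the block alone the difference for Zfp346 had a limma adjusted p of 0.0575.

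Leaving out 1 library at a time gave 14 to 30 rising and 47 to 70 falling after doxorubicin, 53 to 74 and 18 to 35 after peroxide, 5 to 19 and 31 to 62 for the difference, and 15 to 35 and 5 to 15 for the vehicles. Without the 3 libraries that stood apart the counts were 32 and 63, 84 and 29, 15 and 51, and 26 and 13. Estimated depth of at least 17.3 M reads puts the 275 genes above the floor of 3 reads.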
